A study of Mus musculus with 5 samples.

Results

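Genes of mast cells and basophils were followed in the esophagus of mice that make interleukin 13 (IL-13) on demand. The group holds 10 genes, Hdc, Kit, Fcer1a, Ms4a2, Cpa3, Cma1, Tpsb2, Tpsab1, Mcpt4 and Mcpt8, out of 18193 genes tested. They were taken by name, as every probe set whose only gene symbol is one of the 10, which gave 14 of the 45101 probe sets of the Affymetrix Mouse Genome 430 2.0 array. Hdc, Kit, Ms4a2 and Tpsb2 have 2 probe sets each. All mice carried the CC10-rtta/teton-IL-13 transgenes in the FVB/N background and were 3 to 4 months old. The CC10 promoter is active in club cells of the airway, so the transgene is not driven by an esophageal promoter. The Dox group (n = 3 arrays) had a diet with doxycycline, the drug that switches the IL-13 gene on, and the NoDox group (n = 2 arrays) had the diet without it. The labels do not say whether each array is a separate mouse, and the p-values cover the spread of these 5 arrays alone, which may be technical. No transgene-free mice on doxycycline are among these arrays, and an effect of the drug cannot be told apart from one of IL-13.

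Mast cells and basophils carry granules of histamine and proteases and a high-affinity receptor for IgE on their surface. When antigen links the bound IgE, the granules are released and lipid mediators such as leukotrienes are made. Mast cells live in tissues, where they depend on the growth factor receptor KIT, and basophils circulate and enter inflamed tissue. Both are known for their part in type 2 inflammation, in which IL-4 and IL-13 are the main cytokines, and mast cells are a known component of eosinophilic disease of the esophagus.

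Each value is a ratio, the signal of a probe set in an array over the mean signal of the 2 NoDox arrays, so 1 is the NoDox level. The median ratio over all probe sets was 0.955, 0.952 and 0.926 in Dox replicates 1, 2 and 3. Signals behind the ratios were recovered as whole steps, the smallest increment in which they were stored, and are called levels below. Log2 ratios were compared with limma, with Benjamini-Hochberg adjustment over the 18193 genes, and genes with an adjusted p under 0.05 were called. Of the esophageal markers Krt4, Krt13, Krt5, Krt14, Acta1 and Myh11, the level of 5 was not recovered and has only a lower bound, and Myh11 read 19898 to 26844 steps in Dox and 31637 to 42225 in NoDox. Of these 6 genes 0 passed the test in limma, with 2 at unadjusted p under 0.05. Sums of marker signals below are over markers with a recovered level.

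Of the 10 genes, 1 rose in Dox, Hdc, and 0 fell. Over all genes tested 1.35% were higher and 1.17% lower. At unadjusted p under 0.05 limma held 2 of the 10, Hdc and the chymase gene Mcpt4, beside 17.3% of all genes. The remaining genes did not pass, and their log2 fold changes lay between -0.76 for Mcpt4 and 1.02 for the basophil protease gene Mcpt8. The 10 genes had a median log2 fold change of 0.25, beside -0.08 for all genes tested. The Dox arrays lay entirely above both NoDox arrays for Hdc and Mcpt8 and entirely below them for Mcpt4. Over all genes 13.8% lay entirely above and 21.8% entirely below. A separation in either direction was seen in 35.6%, and 3 of 10 is near that background. In a bulk sample fewer cells of a type and less RNA per cell cannot be told apart.

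**Figure D1:**
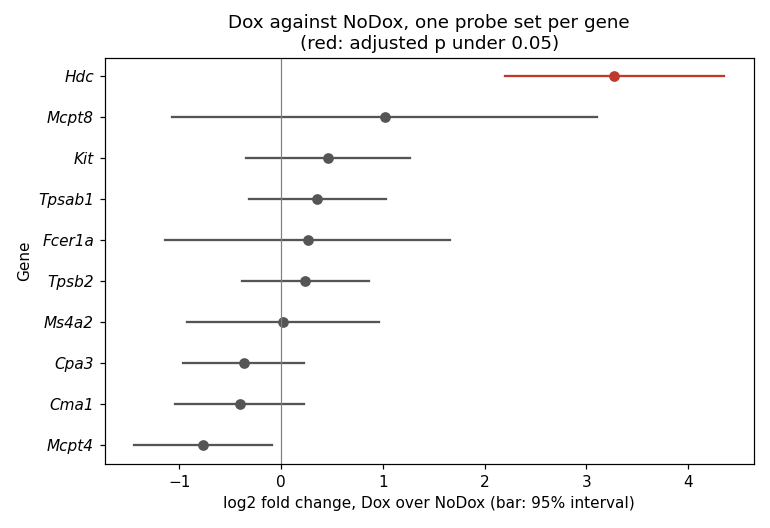
Log2 fold change of Dox over NoDox for the 10 genes, 1 probe set per gene, with the 95% interval of the limma fit as a bar. Hdc, in red, stands at 3.27 and is the gene of the 10 past adjusted p under 0.05, while the interval of Mcpt4 ends just below 0 and the other 8 intervals include 0.

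Hdc encodes histidine decarboxylase, the enzyme that makes histamine from histidine, and is expressed by mast cells and basophils, and also by neutrophils, macrophages and endocrine cells of the stomach. Its brighter probe set read 8.93, 5.69 and 17.0 in Dox replicates 1, 2 and 3, and 1.18 and 0.822 in NoDox replicates 1 and 2. All 3 Dox arrays were far above both NoDox arrays. The log2 fold change was 3.27 ± 0.48 (SE, n = 3 and 2 arrays), a 9.68-fold rise (95% interval 2.20 to 4.35 on the log2 scale, adjusted p = 0.00982, limma with Benjamini-Hochberg adjustment). The signal went from 1055 and 727 steps in the NoDox arrays to 8478, 5628 and 16072 in the Dox arrays, before array scaling.

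The other Hdc probe set read 1.40, 7.72 and 14.7 in Dox replicates 1, 2 and 3 and 0.729 and 1.27 in the NoDox arrays. Here Dox replicate 1 stood just above the higher NoDox array, where the brighter probe set had it at 8.93. The fit over all 34945 probe sets with 1 gene symbol gave this probe set a log2 fold change of 2.49 ± 0.94 (adjusted p = 0.247, limma), and the brighter one 3.27 ± 0.47 (adjusted p = 0.0153). So 1 of the 14 probe sets passed, beside 0.77% of all probe sets that were higher. Both names end in _s_at, the array maker's mark for probes that can match transcripts of more than 1 gene. The call of Hdc was lost without NoDox replicate 1 (adjusted p = 0.104) and without NoDox replicate 2 (0.153). It was lost too when the trend of the spread used the level of the NoDox arrays alone (0.0689). The level over all arrays, used otherwise, includes the Dox arrays.

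Marker lists of neutrophils, macrophages and gastric endocrine cells, which can express Hdc, were read in the same arrays. Of 5 neutrophil markers 2 rose, the calcium-binding S100a8 (3.42 ± 0.27, adjusted p = 0.000379) and S100a9 (1.13 ± 0.17, adjusted p = 0.0125), which squamous epithelium also makes, and S100a9 lost its call without NoDox replicate 1 (0.149) or 2 (0.176). The summed signal of the list, without S100a9, was 96133 to 174675 steps in Dox and 18552 to 19426 in NoDox. In Dox most of this sum was S100a8, with ratios of 15.6, 8.54 and 8.66 over a NoDox mean of 10632 steps. The sum therefore follows S100a8 and not the list as a whole. The granule and receptor genes of the list were not past the threshold, with Elane at -0.92, Mpo at 1.17 and Cxcr2 at -0.19. Of 5 macrophage markers Cd68 (1.54 ± 0.15, adjusted p = 0.00132), Csf1r (0.80) and Adgre1 (0.97) rose, and 0 fell. C1qa and Mrc1 did not pass. The summed signal of Cd68, Adgre1 and Mrc1 was 98710 to 122867 steps in Dox and 59258 to 66638 in NoDox. Csf1r lost its call without Dox replicate 3 (0.0914) and, like Adgre1, without NoDox replicate 1 (0.247 and 0.267) or NoDox replicate 2 (0.176 and 0.179). Of 6 gastric endocrine markers the peptide hormone gene Sst rose (2.94 ± 0.61, adjusted p = 0.0430), a call kept without Dox replicate 2 and lost without any other array, with adjusted p up to 0.307. With an offset added to the signal Sst stood at 1.54 (adjusted p = 0.0531). Sst is the somatostatin gene, and its call does not show that endocrine cells that make histamine moved. Chga, the general endocrine marker, stood at 0.59 ± 0.60 and Ddc at 0.20 ± 0.50, and neither passed. The summed signal of the endocrine list was 9661 to 13149 steps in Dox and 6711 to 10057 in NoDox. The part of these cells in the Hdc rise was not tested.

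**Figure D2:**
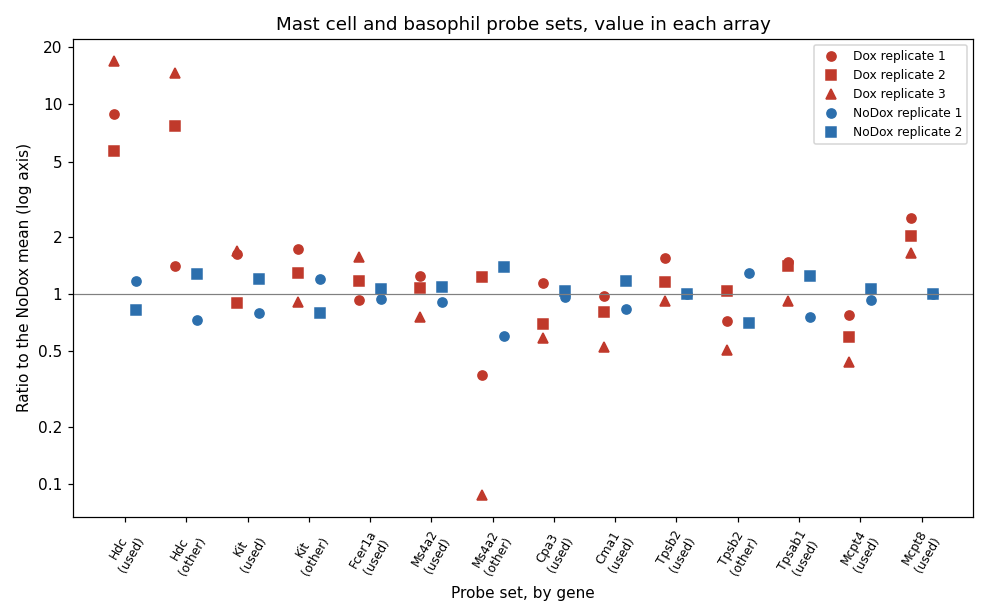
Ratio to the NoDox mean, on a log axis, of each of the 14 probe sets in the 5 arrays, with Dox arrays in red and NoDox arrays in blue, and the probe set used for the gene marked. The Hdc probe sets reach 17.0 and 14.7 in Dox replicate 3, the Mcpt8 probe set reaches 2.51 in Dox replicate 1, and the second Ms4a2 probe set spreads from 0.0873 to 1.39.

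The receptors came next. Kit, the receptor for stem cell factor on which mast cells depend, read 1.62, 0.898 and 1.68 in the Dox arrays and 0.792 and 1.21 in the NoDox arrays with its brighter probe set. The groups overlapped, and the log2 fold change was 0.46 ± 0.36 (95% interval -0.34 to 1.27). Its other probe set read 1.73, 1.29 and 0.909 in Dox and 1.20 and 0.797 in NoDox, at 0.37 ± 0.52. The 2 probe sets differed on Dox replicate 3, which was the highest array of the first and the lowest Dox array of the second. Kit also marks interstitial cells of Cajal, the pacemaker cells of gut muscle, and melanocytes. Prkcq (-0.53 ± 0.22) and Ano1 (-0.30 ± 0.19), listed as Cajal cell markers, did not pass. Prkcq read 17057 to 29663 steps in Dox and 33263 to 34798 in NoDox, and Ano1 has only a lower bound. Whether their signal comes from Cajal cells in this bulk sample was not tested. Neither was the part of Cajal cells in the Kit values. Of 6 melanocyte markers 0 passed in limma, with 1, Slc45a2, at unadjusted p under 0.05 (-1.83 ± 0.62). Of the 6, 4 stood below 0 and 2 above, Tyr (1.46 ± 0.70) and Mlana (1.17 ± 0.90).

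Fcer1a encodes the IgE-binding alpha chain of the high-affinity IgE receptor, which dendritic cells can also carry. It read 0.935, 1.17 and 1.57 in Dox and 0.941 and 1.06 in NoDox, and its log2 fold change was 0.26 ± 0.62 (95% interval -1.14 to 1.66). Dox replicate 1 lay below both NoDox arrays and Dox replicate 3 above them. The level was low, at percentile 17.6 of the genes tested. Of 5 dendritic cell markers Cd209a (0.61 ± 0.25), Flt3 (0.43 ± 0.62) and Zbtb46 (0.09 ± 0.28) did not pass. The other 2 rose, the integrin Itgax (2.03 ± 0.36, adjusted p = 0.0232, limma) and the lectin Clec10a (0.75 ± 0.16, adjusted p = 0.0480). Both lost their call without NoDox replicate 1 or 2, at 0.212 in both fits for Itgax and at 0.167 and 0.414 for Clec10a, which lost it without Dox replicate 1 (0.0934) or 3 (0.148) as well.

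Ms4a2 encodes the beta chain, which amplifies the signal of the IgE receptor. Its brighter probe set read 1.25, 1.08 and 0.762 in Dox and 0.908 and 1.09 in NoDox, for a log2 fold change of 0.02 ± 0.42 (95% interval -0.92 to 0.96). The other probe set read 0.374, 1.23 and 0.0873 in Dox and 0.605 and 1.39 in NoDox, at -1.42 ± 1.05. The second ranged over a wide span within the Dox group, and neither separated the groups. The gamma chain Fcer1g, shared with other Fc receptors of myeloid cells, read 1.84, 1.36 and 1.46 in Dox and 1.10 and 0.900 in NoDox. It stood at 0.63 ± 0.19 and did not pass (adjusted p = 0.133), although its 3 Dox arrays lay above both NoDox arrays.

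Of the 5 granule proteases of mast cells 0 passed, with 1, Mcpt4, at unadjusted p under 0.05 in limma. Mcpt4 encodes a chymase of connective tissue mast cells. It read 0.774, 0.594 and 0.440 in Dox and 0.929 and 1.07 in NoDox. All 3 Dox arrays were below both NoDox arrays, and the log2 fold change was -0.76 ± 0.30 (95% interval -1.44 to -0.09, adjusted p = 0.235, limma). That separation is a common one among all genes, as given above.

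Cma1, a chymase-family protease of connective tissue mast cells, read 0.974, 0.806 and 0.525 in Dox and 0.831 and 1.17 in NoDox, at -0.41 ± 0.28. Cpa3, a carboxypeptidase stored with the chymases, read 1.14, 0.695 and 0.586 in Dox and 0.966 and 1.03 in NoDox, at -0.37 ± 0.26. In both genes Dox replicate 3 was the lowest array and the groups overlapped.

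Tpsb2 and Tpsab1 encode the mast cell tryptases, which cut after basic residues. Tpsb2 read 1.54, 1.16 and 0.921 in Dox and 0.999 and 1.001 in NoDox, at 0.24 ± 0.28 (95% interval -0.38 to 0.86). Tpsab1 read 1.48, 1.41 and 0.922 in Dox and 0.758 and 1.24 in NoDox, at 0.36 ± 0.30 (95% interval -0.31 to 1.03). Dox replicate 3 was again the lowest of the Dox arrays, here within or below the NoDox range. Tpsab1 moved to 0.0016 without NoDox replicate 1 and to 0.71 without NoDox replicate 2. The dimmer Tpsb2 probe set read 0.720, 1.04 and 0.507 in Dox and 1.30 and 0.704 in NoDox, at -0.40 ± 0.62, so the 2 Tpsb2 probe sets differed in sign. The tryptase genes share sequence, as do the chymase genes, so which member of each family a probe set reads is uncertain.

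The proteases were also set against each other within each array. The quotient of Tpsb2 over Mcpt4 was 1.99, 1.94 and 2.09 in Dox and 1.07 and 0.935 in NoDox, and that of Tpsab1 over Mcpt4 was 1.91, 2.37 and 2.10 in Dox and 0.816 and 1.16 in NoDox. With these probe sets the tryptase signals relative to Mcpt4 were higher in every Dox array than in either NoDox array, 2.01-fold and 2.18-fold on average (geometric means). For Tpsb2 over Cma1 and over Cpa3 the averages were 1.56-fold and 1.52-fold, and for Tpsab1 1.70-fold and 1.65-fold, all without overlap between the groups. Cma1 and Cpa3 over Mcpt4 were 1.28-fold and 1.32-fold higher, also without overlap. The quotients of the 2 tryptases, and of Cpa3 over Cma1, overlapped. In all, 8 of the 10 protease pairs separated the groups, where 32.1% of all pairs of genes did so. The 10 pairs come from 5 genes, the comparison was chosen after the values were seen, and no test was made. With the dimmer Tpsb2 probe set the separation did not hold: its quotient over Mcpt4 was 0.930, 1.75 and 1.15 in Dox and 1.39 and 0.657 in NoDox, and all 4 of its pairs overlapped.

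In 7 of the 10 genes, all 5 proteases with Ms4a2 and Mcpt8, the highest Dox value was in Dox replicate 1 and the lowest in Dox replicate 3, an order that 14.6% of all genes had. The median ratio of the 5 proteases was 1.14, 0.806 and 0.586 in Dox replicates 1, 2 and 3 and 0.929 and 1.07 in the NoDox arrays. Hdc, Kit and Fcer1a had their highest value in Dox replicate 3 with the probe sets used. The other probe sets of Ms4a2 and Tpsb2 were highest in Dox replicate 2, so the order does not hold with them. The order was seen first and counted afterwards, the genes share the arrays, and it was not tested.

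**Figure D3:**
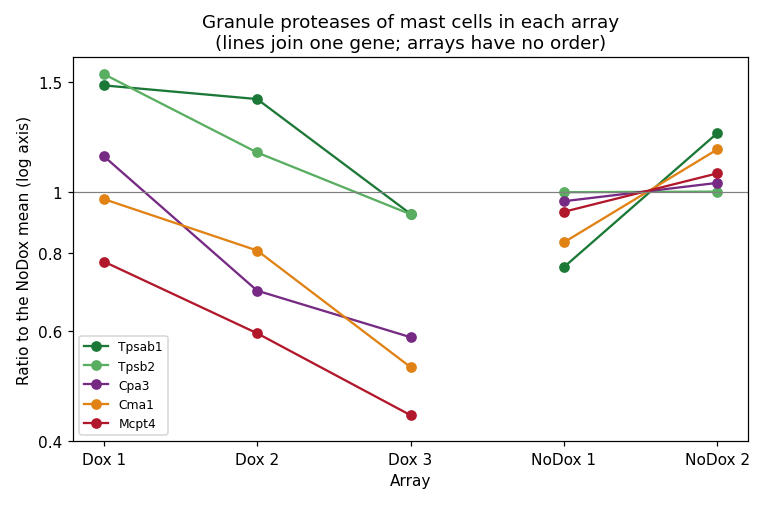
Ratio to the NoDox mean, on a log axis, of the 5 mast cell proteases in each array, with lines that join the values of 1 gene within a group. In Dox the tryptases Tpsab1 and Tpsb2 are on top and Mcpt4, from 0.774 to 0.440, is at the bottom in all 3 arrays, while in NoDox all values lie between 0.758 and 1.24.

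Mcpt8, a protease made by basophils and used as their marker in mice, read 2.51, 2.01 and 1.64 in Dox and 0.998 and 1.002 in NoDox. All Dox arrays were above both NoDox arrays, a separation common among all genes. The log2 fold change of 1.02 ± 0.92 did not pass (95% interval -1.07 to 3.11, adjusted p = 0.634, limma). Its signal was 117 and 116 steps in NoDox and 312, 261 and 203 in Dox, a level at percentile 2.98 of the genes tested. With an offset added to the signal its log2 fold change shrank to 0.19.

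Promoter windows of RefSeq (GRCm38.p6, 250 bases before to 50 after the start) were matched for 8 of the 10 genes. They were searched on both strands for AGATAA and TGATAA, forms of the letters that GATA factors of mast cells bind. Forms that end in another base were not searched. The windows were also searched for TTC and GAA with 4 bases between them, the spacing that STAT6, the transcription factor of IL-4 and IL-13, prefers. The GATA letters were in 4 of the 8 windows, those of Fcer1a, Ms4a2, Cpa3 and Mcpt4, and in 19.0% of 27025 promoters. The STAT6 letters were in 0 of the 8 and in 6.99% of all promoters. A match is a description, not a shown site. The windows of Hdc, the gene that rose, and of the protease genes Mcpt4 and Cpa3 and the receptor gene Ms4a2, which hold matches, are given 5′ to 3′ on the minus strand, with GATA letters in capitals. They are chr2:126618629-126618928 for Hdc, chr14:56062261-56062560 for Mcpt4, chr3:20242132-20242431 for Cpa3 and chr19:11623670-11623969 for Ms4a2.
Hdc: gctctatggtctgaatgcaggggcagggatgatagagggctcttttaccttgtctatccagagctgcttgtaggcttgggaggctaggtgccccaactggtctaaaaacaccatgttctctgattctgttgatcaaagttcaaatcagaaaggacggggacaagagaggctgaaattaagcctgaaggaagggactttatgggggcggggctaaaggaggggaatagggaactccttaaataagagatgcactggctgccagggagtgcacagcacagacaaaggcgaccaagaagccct
Mcpt4: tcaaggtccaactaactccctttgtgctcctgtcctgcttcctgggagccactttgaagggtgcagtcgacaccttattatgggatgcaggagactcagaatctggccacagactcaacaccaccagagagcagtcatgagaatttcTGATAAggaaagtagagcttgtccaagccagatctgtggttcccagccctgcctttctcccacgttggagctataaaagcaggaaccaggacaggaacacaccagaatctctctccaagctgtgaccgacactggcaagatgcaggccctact
Cpa3: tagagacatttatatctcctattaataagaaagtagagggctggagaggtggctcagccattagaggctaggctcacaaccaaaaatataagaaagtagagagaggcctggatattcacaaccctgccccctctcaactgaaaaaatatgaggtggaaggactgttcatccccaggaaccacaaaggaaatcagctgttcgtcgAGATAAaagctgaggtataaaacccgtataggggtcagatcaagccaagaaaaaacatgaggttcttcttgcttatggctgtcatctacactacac
Ms4a2: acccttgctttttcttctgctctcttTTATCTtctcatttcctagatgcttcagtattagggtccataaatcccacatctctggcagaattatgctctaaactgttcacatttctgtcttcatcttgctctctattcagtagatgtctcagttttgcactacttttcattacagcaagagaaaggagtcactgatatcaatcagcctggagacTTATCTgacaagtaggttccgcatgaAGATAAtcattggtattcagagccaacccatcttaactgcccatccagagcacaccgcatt
Counted from the start, the match begins at -103 in Mcpt4 and at -46 in Cpa3, and Ms4a2 has matches at -224, -37 and -11. The Hdc window has neither searched set of letters, which says only that they are not in these 300 bases. It does hold tgatag, which differs from TGATAA in its last base and was not searched for.

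Other genes of the same cells were read from lists by role. Beside the counts of these lists, 1.35% of all genes were higher and 1.17% lower, and 17.3% had unadjusted p under 0.05 in limma. Among 13 genes of granules, secretion and lipid mediators 3 rose and 0 fell, with a median of 0.23 and 6 genes at unadjusted p under 0.05. Srgn, whose product serglycin packs granule proteases and is made by many leukocytes, read 4.47, 2.68 and 4.23 in Dox and 0.954 and 1.05 in NoDox. Its log2 fold change was 1.89 ± 0.21 (adjusted p = 0.00293, limma), with the groups far apart. Ltc4s, the leukotriene C4 synthase, read 2.66, 2.50 and 2.29 in Dox and 0.854 and 1.15 in NoDox, at 1.32 ± 0.16 (adjusted p = 0.00422). Alox5ap, the protein that hands arachidonic acid to 5-lipoxygenase, rose by 0.79 ± 0.16 (adjusted p = 0.0426). Srgn lost its call without NoDox replicate 1 (0.0768) or 2 (0.0557), Ltc4s without NoDox replicate 1 (0.0989), and Alox5ap without Dox replicate 1 (0.0826), Dox replicate 3 (0.0806) or either NoDox array (0.366 and 0.165). Macrophages make these products too, and 3 of the 5 macrophage markers rose in the same arrays; their part in these values was not tested. Slc18a2, the transporter that loads histamine into granules, read 0.481, 0.297 and 0.357 in Dox and 1.03 and 0.969 in NoDox. It lay below both NoDox arrays in all Dox arrays, as 21.8% of all genes did. At -1.43 ± 0.57 it did not pass (adjusted p = 0.238, limma), and its level was low, at percentile 20.7 of the genes tested. Slc18a2 was named after its values were seen. The values of the histamine enzyme and of its granule transporter had opposite signs, the second without a call.

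The lists of other proteases and of histamine breakdown, transport and receptors gave no call. Among 4 other proteases, Mcpt1 (0.90 ± 1.02), Mcpt2 (0.23 ± 0.84), Tpsg1 (0.45 ± 0.89) and Ctsg (0.24 ± 0.63), 0 passed in limma and 0 had unadjusted p under 0.05. Mcpt1 and Mcpt2 are proteases of mucosal mast cells, and Mcpt1, Mcpt2 and Tpsg1 were dim, at percentiles 6.02, 8.16 and 15.9 of level. Among 8 genes of histamine breakdown, transport and receptors 0 passed and 0 had unadjusted p under 0.05, with a median of 0.16. The receptor Hrh2 stood at -0.59 ± 0.46, the degrading oxidase Maob at -0.18 ± 0.15 and the transporter Slc29a4 at 0.18 ± 0.18.

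Among 14 other surface receptors 2 rose and 1 fell, with a median of 0.49. Csf2rb, the beta chain shared by the receptors of IL-3, IL-5 and GM-CSF, read 3.73, 3.31 and 5.91 in Dox and 0.905 and 1.09 in NoDox. It rose by 2.07 ± 0.24 (adjusted p = 0.00312, limma), and its close relative Csf2rb2, the beta chain specific to IL-3, by 1.45 ± 0.29 (adjusted p = 0.0388). Csf2rb and Csf2rb2 share sequence, so a probe set may read both. The prostaglandin E receptor Ptger3 fell, from 0.977 and 1.02 in NoDox to 0.568, 0.534 and 0.705 in Dox (-0.74 ± 0.16, adjusted p = 0.0453). Csf2rb lost its call without NoDox replicate 1 (0.0876) or 2 (0.0519). Csf2rb2 and Ptger3 kept theirs without Dox replicate 2 and lost it without any other array, with adjusted p up to 0.310 and 0.328. With its lowest-level probe set Ptger3 stood at -2.06 (adjusted p = 0.328). Cd200r3, an activating receptor of basophils and mast cells, read 1.86, 3.58 and 10.5 in Dox and 1.10 and 0.904 in NoDox, at 2.05 ± 0.999 (adjusted p = 0.336). It was named after its values were seen, as a basophil gene, and its level was at percentile 5.73 of the genes tested. Of the 14 receptors 9 stood above 0 and 5 below, among these Cd200r4 (-0.79 ± 0.77) and Mrgprb1 (-1.03 ± 0.96), which did not pass.

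Among 13 signalling genes of the IgE receptor and KIT 1 rose and 0 fell, with the highest median of these lists, 0.60, and 6 at unadjusted p under 0.05. Plcg2, a phospholipase of myeloid and B cells, rose by 0.73 ± 0.15 (adjusted p = 0.0446), a call lost without Dox replicate 3 (0.159) or either NoDox array (0.375 and 0.181). The adaptor Lcp2 stood at 1.33 ± 0.29 (adjusted p = 0.05003, just over the threshold) and the inositol phosphatase Inpp5d at 0.86 ± 0.22 (adjusted p = 0.0822). Most of these genes serve other leukocytes as well. Among 11 transcription factors 0 passed in limma, with 2 at unadjusted p under 0.05. Spi1, a regulator of myeloid cells, was at 0.67 ± 0.20, Ikzf1 at 0.89 ± 0.35, and Gata2, on which mast cells and basophils depend, at 0.31 ± 0.20.

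Among 10 growth factors and cytokines that act on mast cells and basophils Tgfb1 rose (1.01 ± 0.19, adjusted p = 0.0320, limma) and Il18 fell (-0.75 ± 0.16, adjusted p = 0.0424). Both calls were kept without Dox replicate 2 and lost without any other array, with adjusted p up to 0.313 and 0.307. With its lowest-level probe set Tgfb1 stood at 0.22 (adjusted p = 0.867). Kitl, the ligand of KIT, read 1.02, 0.471 and 0.803 in Dox and 1.01 and 0.988 in NoDox, at -0.46 ± 0.28. Il9, a growth factor for mast cells, was dim and read 2.90, 2.13 and 3.63 in Dox and 0.832 and 1.17 in NoDox, at 1.52 ± 0.66 (adjusted p = 0.282). Its Dox arrays were above both NoDox arrays without a call. Il13, whose transgene doxycycline switches on, read 0.305, 0.877 and 0.678 in Dox and 1.15 and 0.853 in NoDox. It stood at -0.81 ± 0.91 and was not higher in Dox, with a dim level at percentile 5.70 of the genes tested. Whether this probe set reads the transgene is not known from these data, so the value does not show whether the transgene was on.

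**Figure D4:**
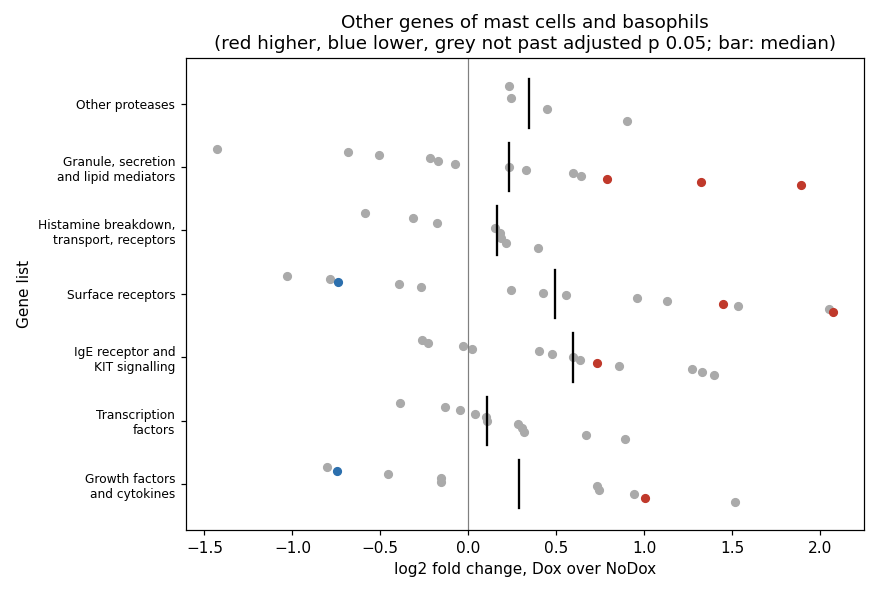
Log2 fold change of Dox over NoDox for the genes of 7 further lists, each point a gene, with the list median as a bar. Genes past adjusted p under 0.05 are red where higher and blue where lower. Medians run from 0.11 for transcription factors to 0.60 for signalling genes, and Csf2rb at 2.07 and Srgn at 1.89 are the highest called genes.

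Eosinophil and lung markers complete the lists of other cells. The eosinophil markers Prg2 (-1.09 ± 1.03), Epx, Ccr3 and Il5ra and the surface lectin Siglecf (2.85 ± 0.84, adjusted p = 0.125) did not pass, and the 5 were dim, with levels at percentiles from 4.16 for Il5ra to 15.0 for Prg2. Their summed signal was 1978 to 4569 steps in Dox and 1524 to 3496 in NoDox. Of 5 lung alveolar markers 4 rose, among them Sftpc (2.18 ± 0.24, adjusted p = 0.00287), with a summed signal, without Sftpc, of 142519 to 385913 steps in Dox and 40023 to 46341 in NoDox. All 4 lost their call without NoDox replicate 1 or 2, with adjusted p from 0.0622 for Sftpc to 0.179 for Ager, and with its lowest-level probe set Ager stood at 1.82 (adjusted p = 0.108). Dox replicate 3 had the highest values of Sftpc (6.22) and of both Hdc probe sets (17.0 and 14.7). The lowest Dox value was in Dox replicate 2 for Sftpc (3.16) and the brighter Hdc probe set (5.69), and in Dox replicate 1 for the other Hdc probe set (1.40). Itgax, Siglecf, Csf2rb and Csf2rb2 were also highest in Dox replicate 3 and lowest in Dox replicate 2. Srgn, Ltc4s, Cd68 and S100a8 were instead highest in Dox replicate 1. These genes were picked after their values were seen. The part of lung RNA in the values of Hdc and of these genes was not tested.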

How the data were processed

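Total RNA of esophagus was extracted with Trizol and labelled with biotin by random priming, per the labels' protocols. Signals were made with MAS 5.0 and normalized in GeneSpring 7.3.1, per the labels. The deposited values are linear ratios to the mean of the NoDox arrays: in 45099 of 45101 probe sets both NoDox ratios add up to 2 (tolerance 0.0001). The labels state a pair-wise normalization instead. No detection call is used here.

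Array scaling factors were taken from the most frequent exact ratio between 2 arrays, which 18 to 33 probe sets shared. Whole steps up to 50000 that give all 5 ratios within 3e-07 were then searched, with at most 0.01 expected chance solutions. Levels were found for 40710 of 45098 probe sets, all 14 of the described genes among them, and for 0.7% of 4000 shuffled ones. In a simulation 95.4% of recovered levels were exact, and 3.46% were a whole fraction of the true level. Probe sets without a solution took a lower bound.

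Log2 ratios were fitted with limma 3.58.1 in R 4.3.3 (lmFit, eBayes with a trend on the mean log2 signal of all arrays), with 3 residual and 6.01 prior degrees of freedom. Each gene was read from its probe set of highest level, and no offset or filter was used. The level was first taken from the NoDox arrays alone, and Hdc was not called. After that fit had been seen, the mean of all arrays was used, as in earlier processing of these data, and the first form is an alternative. A trend on the mean of the fitted values themselves, the log2 ratios, did not call Hdc either (adjusted p = 0.298, limma). The call of Hdc thus depends on this choice. On simulated data for this comparison, with 18193 genes, limma called 46, 123 and 147 of 200 genes changed 2-fold, 4-fold and 8-fold, with 0, 6 and 8 false calls, and called 0 with no change. With 3 and 2 arrays the smallest p of an exact permutation test is 0.1, and none was run on single values.

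The members and lists were chosen with earlier results of these data known. All probe sets of the 10 genes are given, and of each other list the genes past the threshold and those of smallest p; others were named after their values were seen. Some genes of these lists, such as Cd63, Il1rl1, Lyn, Mrgprb2, Mcpt9, Prss34, Slc22a3 and Etv1, were not analysed here. Tables and plots used Python 3.11.15, numpy 2.4.6, pandas 2.3.3 and matplotlib 3.10.9. Alternatives changed the scaling, trend, level, offset, filter, probe set, array weights, replicate block and single arrays.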

Additional observations from a re-analysis of the deposited data

How the results depend on the processing

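Precision is limited by the number of arrays. Hdc stayed above 0 in all 16 alternatives, from 2.34 to 3.65 on the log2 scale, and kept its call in 9 (adjusted p from 0.00105 to 0.298). The count of the 10 genes that rose was 0 in place of 1 with quantile normalization (Hdc adjusted p = 0.1001), with no trend (0.168), with the trend on the mean log2 ratio (0.298), with the lowest-level probe set (0.284) and with the level of the NoDox arrays alone (0.0689; this was the first fit made, and the level over all arrays, which gives the call, was chosen after seeing it), and 0 to 1 with single arrays left out. None of the 10 fell in any alternative (limma), and the other 9 were never called. Without single arrays Kit ranged from 0.16 to 0.77, Cma1 from -0.65 to -0.15, Cpa3 from -0.65 to -0.17, Tpsb2 from 0.05 to 0.42 and Fcer1a from 0.07 to 0.44. Of the 22 called genes named, all 22 lost their call with no trend and with the trend on the mean log2 ratio, 15 with quantile normalization, 20 without NoDox replicate 1 and 19 without NoDox replicate 2. Signs reversed for Ms4a2 with the lowest-level probe set (-1.42), array weights (-0.027), and without Dox replicate 1 (-0.14), Dox replicate 2 (-0.03) or NoDox replicate 1 (-0.11), where leaving out single arrays gave -0.14 to 0.22, and for Tpsb2 with the lowest-level probe set (-0.40). Over all genes 246 were higher and 212 lower. These counts were 58 and 12 with quantile normalization, 6 and 0 with no trend, 0 and 0 with the trend on the mean log2 ratio, 144 and 104 with the lowest-level probe set and 449 and 499 with array weights. With the level of the NoDox arrays alone 139 were higher. Leaving out single arrays gave 47 to 374 higher and 9 to 472 lower. With the replicate block, numbers 1 to 3 of the titles, 462 genes were lower and Hdc stood at 2.86 (adjusted p = 0.00105, limma). Dox replicate 3 has no NoDox array of its number, so this fit gave Hdc the same value as the fit without that array. The same-numbered arrays deviated from their group means with correlations of 0.03 and 0.05. The deviations of the 2 NoDox arrays mirror each other, so these correlations cannot show whether the arrays were paired. The causes of these shifts were not tested.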
